A study of Mus musculus with 8 samples.

Results

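The 5 genes described here are Runx1, Runx2 and Runx3, which encode the DNA-binding subunits of the mammalian RUNX transcription factors, Cbfb, which encodes their shared partner subunit, and Runx1t1, which encodes the co-repressor also called ETO. They were taken by symbol from the genes counted in every library, and each of the 5 symbols had 1 row. RUNX proteins bind DNA as a pair with CBFB and can raise or lower transcription of their targets. In blood formation Runx1 is needed for the emergence of stem cells and for T cell development in the thymus, Runx3 silences Cd4 and maintains the cytotoxic programme in Cd8 T cells, and Runx2 is best known for bone and has roles in long-lived T cells. In acute myeloid leukemia with t(8;21), a fusion joins the DNA-binding domain of RUNX1 to most of RUNX1T1, which recruits co-repressor complexes.

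The 4 gene expression libraries came from bone marrow of C57BL/6 mice. The RUNX1::RUNX1T1 group was Runx1Runx1t1/+; Mx1-Cre, in which the interferon-inducible Mx1 promoter drives Cre in the hematopoietic system and recombined cells express Runx1::Runx1t1 with mCherry. The Control group carried the same conditional allele without Mx1-Cre by the study's methods and is labelled WT in the sample records. Mice were sex-matched littermates, received Poly(I:C) 4 times, every other day, and were killed 4 weeks later. Each group had 2 pools, and each pool mixed the marrow of 2 mice. T cells were enriched by negative selection and sorted in both groups as DAPI-, mCherry- and CD3+, so cells positive for the fusion reporter were gated out before sequencing. Ages are not given in the sources used here.

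The libraries held 90958101 to 102883449 UMIs (unique molecular identifiers, each counting 1 captured transcript), and 53033 cells were kept, 13795 and 13010 in the RUNX1::RUNX1T1 pools and 12764 and 13464 in the Control pools. Across libraries, 1425 barcodes were shared. Cells were clustered without the 5 genes, and each cluster was placed in a class by its co-receptor UMIs: Cd8 (26540 cells), Cd4 (9812 cells), co-receptor-negative T cells (14442 cells) and Kit Cd34 cells (1090 cells). The T cell markers Cd3d, Cd3e, Cd3g, Trac, Trbc1 and Trbc2 summed to 2861 to 4255 CPM (UMIs of a gene per 1000000 UMIs of the same sum) in the T cell classes of each pool. In the Kit Cd34 cells the same markers summed to 107 to 456 CPM, while Kit was at 169 to 331 CPM and Cd34 at 477 to 587 CPM, so these cells carried progenitor markers and few T cell transcripts although they came through a CD3+ gate. Among the co-receptor-negative cells, 48.5% to 67.2% per pool had a Cd3 UMI and no UMI of Cd4, Cd8a or Cd8b1. The Cd8 class held some Cd4 transcripts, at 16.2 and 29.3 CPM in the RUNX1::RUNX1T1 pools and 5.33 and 5.12 CPM in the Control pools. Of its clusters, 14 and 22 were mixed, with a Cd4 UMI in 24.0% and 33.6% of their cells. The part of this mixture in the Cd8 values was not tested. Transcripts of other cell types moved with the group. In the T cell classes the mast cell and basophil markers listed below summed to 16.6 to 36.4 CPM in the RUNX1::RUNX1T1 pools and 1.18 to 2.96 CPM in the Control pools, and the myeloid markers Lyz2, S100a8, S100a9, Csf1r and Elane to 3.21 to 5.95 CPM and 21.1 to 88.1 CPM. Their part in the T cell results was not tested.

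All 5 genes are protein coding. On GRCm38, Runx1 (ENSMUSG00000022952) lies at chr16:92601466-92826149 on the minus strand, Runx2 (ENSMUSG00000039153) at chr17:44495987-44814797 on the minus strand, and Runx3 (ENSMUSG00000070691) at chr4:135120652-135177990 on the plus strand. Runx1t1 (ENSMUSG00000006586) lies at chr4:13743436-13893649 and Cbfb (ENSMUSG00000031885) at chr8:105170674-105217989, both on the plus strand. The libraries were made with 5′ chemistry, so most reads come from near a transcript's start. A transcript that begins in Runx1 and ends in Runx1t1 would therefore be counted mainly as Runx1, and UMI counts per gene cannot tell fusion transcripts from those of either gene. Runx2 overlaps antisense genes that have rows of their own, and whether counting used strand is not stated in the sources used here.

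Promoters are shown for Runx2 and Runx3, the members called between the groups in a T cell class. The sequences are the 250 bases before a RefSeq start site on GRCm38.p6, written 5′ to 3′ on the strand of the gene. Capitals mark the RUNX core motif TGTGGT or its reverse complement ACCACA, searched on both strands.
Runx2, chr17:44814628-44814877, minus strand: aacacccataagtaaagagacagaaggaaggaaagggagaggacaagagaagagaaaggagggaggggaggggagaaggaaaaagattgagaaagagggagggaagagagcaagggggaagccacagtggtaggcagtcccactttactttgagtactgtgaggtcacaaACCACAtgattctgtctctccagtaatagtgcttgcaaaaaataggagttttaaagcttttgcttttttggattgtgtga
Runx3 distal, chr4:135120395-135120644, plus strand: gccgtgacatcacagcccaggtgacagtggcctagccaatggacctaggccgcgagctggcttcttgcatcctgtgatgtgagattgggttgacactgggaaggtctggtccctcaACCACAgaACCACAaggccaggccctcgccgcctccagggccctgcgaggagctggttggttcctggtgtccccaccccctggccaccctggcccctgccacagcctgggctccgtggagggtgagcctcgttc
Runx3 proximal, chr4:135152295-135152544, plus strand: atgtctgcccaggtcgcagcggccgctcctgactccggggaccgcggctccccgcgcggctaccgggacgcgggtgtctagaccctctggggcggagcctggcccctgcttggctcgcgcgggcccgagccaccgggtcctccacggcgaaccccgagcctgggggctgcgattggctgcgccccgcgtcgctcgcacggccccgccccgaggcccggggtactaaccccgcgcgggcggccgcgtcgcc
The Runx2 window held 1 match, the distal Runx3 window held 2 matches that are 2 bases apart, and the proximal Runx3 window held 0. Of 32851 promoter windows of the same length, 4614 (14.0%) held the motif. Both Runx1 windows and the Cbfb window held 0 matches of TGTGGT, and no window of the 6 held the variant TGCGGT, which was found in 5.10% of all windows. A match is a stretch of letters and was not tested for binding here.

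Runx1t1 and Runx1, the 2 genes joined in the engineered allele, were both higher in the RUNX1::RUNX1T1 pools among Kit Cd34 cells, and neither passed the test in a T cell class. In Kit Cd34 cells Runx1t1 was at 18.3 and 17.6 CPM in the RUNX1::RUNX1T1 pools (57 and 49 UMIs) and at 2.77 and 1.39 CPM in the Control pools (3 and 9 UMIs). Every RUNX1::RUNX1T1 value was above both Control values, and the Control values rest on few UMIs. Here and below, groups that do not overlap are given as a description. The share of all genes with pools ordered so was not computed. The log2 fold change was 3.50 ± 0.41 (SE, n = 2 pools per group, edgeR quasi-likelihood test, adjusted p = 9.6e-05). A count filter asks for a minimum level in at least 2 pools before a gene is tested. Only the RUNX1::RUNX1T1 pools met it for Runx1t1, so the gene entered the test through the group where it was higher. At least 1 Runx1t1 UMI was found in 15.4% and 14.4% of the Kit Cd34 cells of the RUNX1::RUNX1T1 pools and in 3.85% and 1.65% of those of the Control pools. With each cell thinned to 2000 UMIs the shares were 4.58%, 3.63%, 1.30% and 0.244%, in the same order of groups.

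Runx1 in Kit Cd34 cells was at 336 and 402 CPM in the RUNX1::RUNX1T1 pools and at 138 and 147 CPM in the Control pools. The groups did not overlap, and the log2 fold change was 1.46 ± 0.15 (SE, edgeR, adjusted p = 3.8e-05). Runx3 was lower, at 70.9 and 93.6 CPM against 132 and 122 CPM, a log2 fold change of -0.52 ± 0.15 (edgeR, adjusted p = 0.0231). This call did not hold without replicate 1 of the RUNX1::RUNX1T1 group (-0.36, edgeR, adjusted p = 0.371) or with DESeq2 (-0.53, adjusted p = 0.131). Runx2 was at 115 and 109 CPM against 122 and 116 CPM, and Cbfb ranged from 83.4 to 91.4 CPM over the 4 pools. By CPM both genes were lower in both RUNX1::RUNX1T1 pools than in both Control pools, again without overlap. The CPM values are not TMM-scaled, and with TMM scaling the log2 fold changes, 0.02 ± 0.13 each, were smaller than their SE.

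Of the 5 members 3 were called in Kit Cd34 cells, where 23.4% of the 10837 genes tested were called. The numbers of cells behind these sums were 311 and 278 in the RUNX1::RUNX1T1 pools and 78 and 423 in the Control pools, so replicate 1 of the Control group is the thinnest. Markers of mast cells and basophils moved with the group. All 6 of Cpa3, Ms4a2, Mcpt8, Prss34, Gata2 and Hdc were found in both RUNX1::RUNX1T1 pools, where they summed to 7672 and 7324 CPM. In the Control pools they summed to 89.6 and 104 CPM, 3 and 4 of the 6 were found, and Ms4a2 was at 0 in both.

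Cpa3, a mast cell and progenitor protease, was found in far more cells of the RUNX1::RUNX1T1 pools. Kit Cd34 cells fell into a deeper cluster (cluster 3, 834 cells, median 13496.5 UMIs) and a shallower one (cluster 24, 256 cells, median 2651 UMIs). In cluster 3 all 420 cells of the RUNX1::RUNX1T1 pools had a Cpa3 UMI, against 47 of 414 cells of the Control pools. In cluster 24 a Cpa3 UMI was found in 139 of 169 cells and in 1 of 87 cells. No comparison at matched Cpa3 was made, and the part of this difference in the values of Runx1t1, Runx1 and Runx3 was not tested.

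Both Kit Cd34 clusters showed the order of Runx1 and Runx1t1 seen in their sum. In cluster 3 Runx1 was at 301 and 354 CPM in the RUNX1::RUNX1T1 pools against 115 and 136 CPM, and Runx1t1 at 17.8 and 17.4 CPM against 2.23 and 1.44 CPM. In cluster 24 Runx1 was at 737 and 859 CPM against 248 and 458 CPM. Runx1t1 there was at 24.0 and 18.9 CPM, from 6 and 5 UMIs. In replicate 1 of the Control group it was at 5.40 CPM, from 1 UMI in 32 cells. Replicate 2 of that group, with 55 cells, had 0 UMIs. The order of Runx1t1 in cluster 24 thus rests on few UMIs. With cluster 24 left out, an alternative added after seeing the data, the log2 fold changes were 3.56 for Runx1t1, 1.45 for Runx1 and -0.53 for Runx3, and all 3 passed the test.

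In the T cell classes Runx1t1 was barely detected. Its summed level was 0.101 to 1.21 CPM over the 12 pools and classes, from 1 to 36 UMIs each. Kit, which mature T cells largely lack, was at 0.70 to 3.93 CPM in the same sums. The log2 fold change of Runx1t1 was 1.01 ± 0.43 in Cd8 cells (edgeR, adjusted p = 0.241) and 1.82 ± 0.63 in co-receptor-negative cells (edgeR, adjusted p = 0.131). With 1 pool left out these values ranged from 0.58 to 1.33 and from 1.21 to 2.97, the lowest without replicate 2 of the RUNX1::RUNX1T1 group and without replicate 1 of the Control group, the highest without replicate 1 of the RUNX1::RUNX1T1 group and without replicate 2 of the Control group, and none passed. The value in co-receptor-negative cells passed with the replicate number as a block (1.95, edgeR, adjusted p = 0.032). In that class too, only the RUNX1::RUNX1T1 pools met the count filter for Runx1t1. In Cd4 cells Runx1t1 was too low to be tested. Cpa3, which was high in the Kit Cd34 cells, stood at 14.9 to 30.0 CPM in the T cell classes of the RUNX1::RUNX1T1 pools and at 0 to 0.28 CPM in those of the Control pools, and its part in the Runx1t1 values was not tested.

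**Figure D1:**
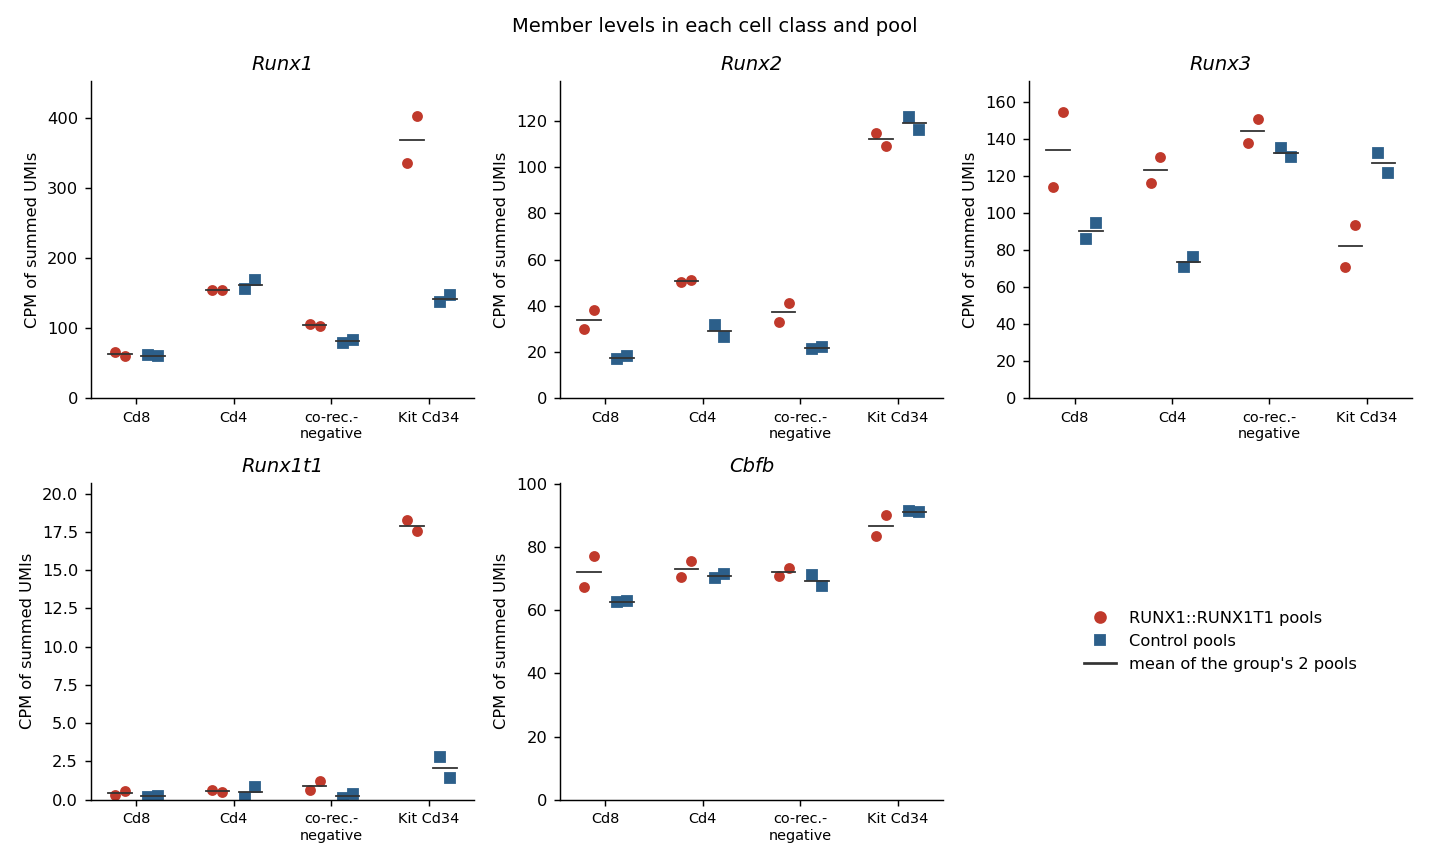
CPM of the summed UMIs (y axis, linear, from 0) of each member in each class (x axis), with 1 point per pool and a line at the mean of the 2 pools of a group. Runx1 and Runx1t1 stand apart between the groups in Kit Cd34 cells (336 and 402 against 138 and 147 CPM for Runx1), and Runx2 in the 3 T cell classes.

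Runx1 separated the T cell classes more than the groups. It was at 155 and 154 CPM in Cd4 cells of the RUNX1::RUNX1T1 pools and at 155 and 168 CPM in those of the Control pools. Cd8 cells had 66.3 and 60.2 CPM against 61.3 and 59.9 CPM. The groups overlapped in Cd8 cells, and in Cd4 cells replicate 1 of the Control group lay within 1 CPM of a RUNX1::RUNX1T1 pool. The changes were smaller than their SE, with log2 fold changes of -0.05 ± 0.08 in Cd4 cells and -0.01 ± 0.10 in Cd8 cells. In every pool Runx1 was higher in Cd4 than in Cd8 cells, by a mean log2 ratio of 1.35 ± 0.11 (SD, n = 4 pools), given as a description because the classes are clusters of the same cells.

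Co-receptor-negative cells held an intermediate level of Runx1, 106 and 103 CPM in the RUNX1::RUNX1T1 pools and 79.2 and 82.4 CPM in the Control pools. The groups did not overlap, and the log2 fold change of 0.28 ± 0.07 missed the threshold (edgeR, adjusted p = 0.0571). It passed with classes taken from the UMIs of each cell (0.54, edgeR, adjusted p = 0.0122), with a stricter cell filter and without the shallow clusters. The make-up of the class moved with the group. Clusters 6 and 12, where Runx1 was at 63.8 and 40.3 CPM, had 1442 of the 4378 co-receptor-negative cells of the RUNX1::RUNX1T1 pools and 6515 of the 10064 of the Control pools. Inside cluster 1, where Runx1 was at 149 CPM over all pools, the pools read 143 and 154 CPM against 147 and 155 CPM and overlapped. In cluster 16 Runx1 was lower in the RUNX1::RUNX1T1 pools, at 144 and 157 CPM against 171 and 205 CPM, and the other clusters of the class overlapped. The part of the make-up in the Runx1 values of the class was not tested.

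Runx2 was higher in the RUNX1::RUNX1T1 pools in all 3 T cell classes by 0.67 to 0.88 on the log2 scale, and passed the test in Cd4 and co-receptor-negative cells only. In Cd4 cells it was at 50.3 and 51.0 CPM in the RUNX1::RUNX1T1 pools and at 31.6 and 26.6 CPM in the Control pools, a log2 fold change of 0.82 ± 0.10 (edgeR, adjusted p = 0.00726). In co-receptor-negative cells it was at 33.1 and 41.1 CPM against 21.2 and 22.2 CPM, a log2 fold change of 0.67 ± 0.11 (edgeR, adjusted p = 0.00908). That call was lost with classes taken from the UMIs of each cell (0.41, edgeR, adjusted p = 0.0787). Neither class showed an overlap of the groups, which is a description only. In Cd8 cells the values were 30.0 and 37.9 CPM against 16.8 and 18.3 CPM, again without overlap, and the log2 fold change of 0.88 ± 0.11 missed the threshold (edgeR, adjusted p = 0.0926).

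In Cd8 cells 0.00768% of the 13029 genes tested (1 gene) were called. The 2 RUNX1::RUNX1T1 pools differed from each other there. Cells of clonotypes of 5 or more cells made up 16.9% of Cd8 cells in replicate 1 and 34.3% in replicate 2. In replicates 1 and 2 of the Control group they made up 2.35% and 6.99%. With these cells left out, 85 of 12767 genes were called in Cd8 cells, Runx2 among them. The reason for this change was not tested. Without replicate 1 of the RUNX1::RUNX1T1 group, Runx2 (0.995, adjusted p = 0.00796) and Runx3 (0.65, adjusted p = 0.0395) both passed edgeR's test in Cd8 cells. Of the 5 members 0 were called in Cd8 cells by edgeR, 2 had an unadjusted p under 0.05, and 2 were called by DESeq2. Those 2 were Runx2 and Runx3 in each case. Of all 13029 genes, 2938 had an unadjusted p under 0.05 and DESeq2 called 926.

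Runx3, the RUNX member tied to the cytotoxic lineage, was higher in the RUNX1::RUNX1T1 pools in Cd4 cells and was not called in co-receptor-negative cells. Cd4 cells had 116 and 130 CPM in the RUNX1::RUNX1T1 pools and 70.9 and 76.0 CPM in the Control pools. The groups did not overlap, and the log2 fold change was 0.76 ± 0.08 (edgeR, adjusted p = 0.00655). Cd8 cells had 114 and 154 CPM against 85.9 and 94.5 CPM, also without overlap, with a log2 fold change of 0.49 ± 0.13 that missed the threshold (edgeR, adjusted p = 0.133). Co-receptor-negative cells had 137 and 150 CPM against 135 and 130 CPM, so both RUNX1::RUNX1T1 pools lay above both Control pools there too. The CPM values are not TMM-scaled, and with TMM scaling the log2 fold change was 0.02 ± 0.07 (edgeR, adjusted p = 0.883).

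In Cd4 cells 2 of the 4 members tested were called, against 3.24% of the 11711 genes tested. In co-receptor-negative cells 1 of the 5 was called, against 5.33% of the 12243 genes tested. Both Cd4 calls were lost when 1 cluster was left out. Cluster 2, with a Ccl5 level of 31542 CPM, had 512 and 660 cells in the RUNX1::RUNX1T1 pools and 15 and 12 in the Control pools. Without it, the log2 fold changes in Cd4 cells were 0.39 for Runx2 (edgeR, adjusted p = 0.136) and 0.32 for Runx3 (edgeR, adjusted p = 0.0919). In each of the remaining Cd4 clusters, 0, 11 and 15, both genes had higher CPM in both RUNX1::RUNX1T1 pools than in both Control pools. For Runx2 in cluster 0 this rests on 1 to 11 UMIs per pool. Both calls were also lost with all cells kept and no count filter, where 5 genes were called.

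The difference between the classes was tested directly for each member, with the pool as a block. The group effect on Runx3 was lower in co-receptor-negative than in Cd4 cells by 0.75 ± 0.09 on the log2 scale (-0.75, edgeR, adjusted p = 0.00829), where 1.09% of the 13388 genes tested were called. It was also lower than in Cd8 cells (-0.47 ± 0.09, edgeR, adjusted p = 0.0351), where 2.1% of the genes were called. Neither call held without replicate 1 of the Control group (-0.68 and -0.39) or without replicate 2 of the Control group (-0.82 and -0.54). Each of these fits leaves 1 Control pool, and calls were lost there for nearly all genes, not only for Runx3. Between Cd4 and Cd8 cells, 0 of the 5 members and 0.164% of the genes were called by edgeR, and 1 member, Runx3, had an unadjusted p under 0.05 (0.28 ± 0.09, edgeR, adjusted p = 0.352).

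**Figure D2:**
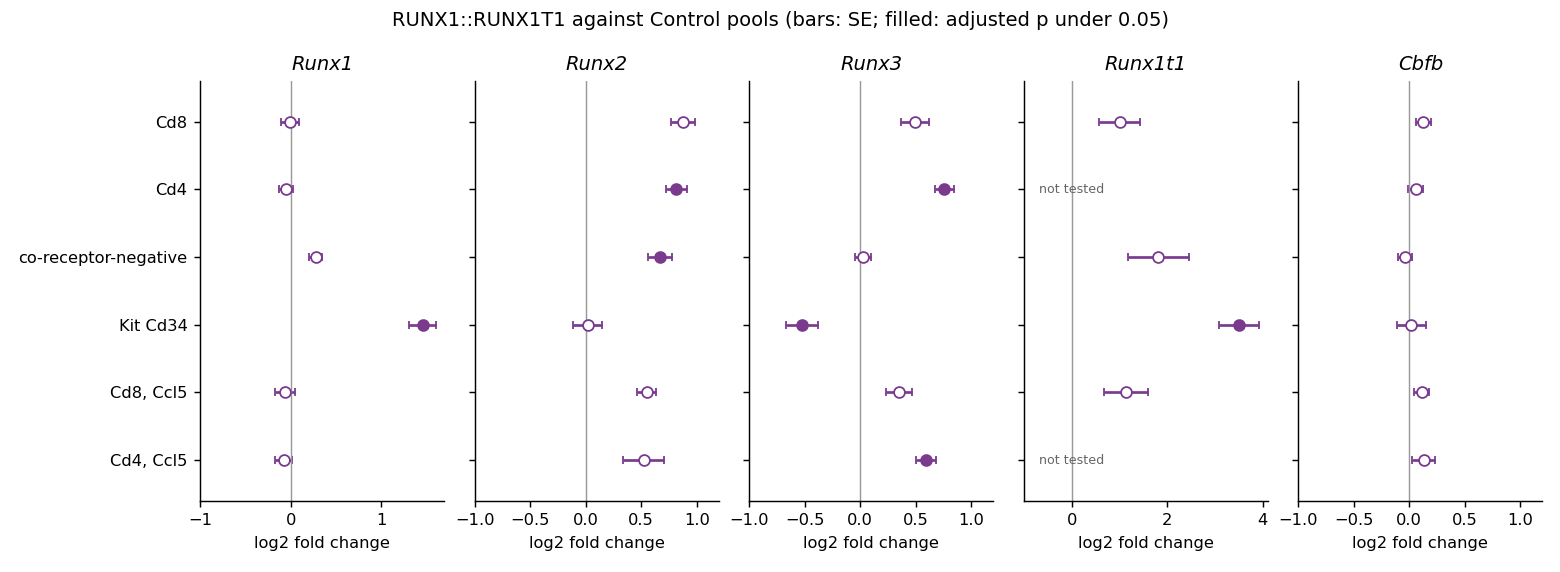
Log2 fold change of RUNX1::RUNX1T1 over Control pools (x axis) for each member in each class and stratum (y axis), with bars for the SE and filled points for an adjusted p under 0.05. Runx2 sits between 0.52 and 0.88 in every T cell class and stratum, while Runx3 ranges from -0.52 in Kit Cd34 cells to 0.76 in Cd4 cells.

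The Cd4 and Cd8 classes held different mixtures in the 2 groups, so the members were also compared among cells with at least 2 UMIs of Ccl5, a chemokine of effector and memory cells. These made up 72.4% and 84.1% of Cd8 cells in the RUNX1::RUNX1T1 pools and 50.1% and 56.4% in the Control pools. Among Cd4 cells the Ccl5 stratum held 53.1% and 65.7% against 25.3% and 29.4%. Among Kit Cd34 cells 12.8% to 40.3% per pool passed the same cutoff. The stratum did not match the groups for Ccl5 itself, which was at 12487 and 13143 CPM against 4351 and 3342 CPM in the Cd4 stratum and at 12517 and 18716 CPM against 7423 and 7145 CPM in the Cd8 stratum. The values within the strata are therefore not values at equal Ccl5. Runx1 and Cbfb were called in neither stratum by edgeR.

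In the Ccl5 stratum of Cd8 cells, Runx2 was at 36.6 and 42.5 CPM against 24.9 and 26.2 CPM, and Runx3 at 129 and 168 CPM against 105 and 115 CPM. For both genes the groups were apart. Neither passed the test, with log2 fold changes of 0.55 ± 0.09 (edgeR, adjusted p = 0.106) and 0.35 ± 0.12 (edgeR, adjusted p = 0.195), in a comparison where 0.0319% of the 12527 genes tested were called. Over all genes 2508 had an unadjusted p under 0.05, and DESeq2 called 611. Of the 5 members 0 were called by edgeR, 2 had an unadjusted p under 0.05, and 1, Runx2, was called by DESeq2. Both passed edgeR's test without replicate 1 of the RUNX1::RUNX1T1 group (0.61, adjusted p = 0.00622, and 0.49, adjusted p = 0.0143).

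In the Ccl5 stratum of Cd4 cells, Runx3 was at 149 and 152 CPM in the RUNX1::RUNX1T1 pools and at 103 and 99.2 CPM in the Control pools. Both groups stood clear of each other, and the log2 fold change was 0.59 ± 0.09 (edgeR, adjusted p = 0.0147), 1 of the 4 members tested, where 1.48% of the 10879 genes tested were called. Without replicate 1 or replicate 2 of the Control group the fold change was 0.60 and 0.58 and the adjusted p from edgeR 0.0516 and 0.0654. Runx2 there was at 65.1 and 60.9 CPM against 56.4 and 33.6 CPM, with the Control pools far apart (0.52 ± 0.18, edgeR, adjusted p = 0.242). Without replicate 1 of the Control group it passed (0.91, edgeR, adjusted p = 0.0375), and likewise without replicate 2 of the RUNX1::RUNX1T1 group (0.58, edgeR, adjusted p = 0.0332).

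Cbfb was the steadiest member. In Cd8 cells it was at 67.2 and 77.0 CPM in the RUNX1::RUNX1T1 pools and at 62.5 and 62.9 CPM in the Control pools, and in Cd4 cells at 70.6 and 75.6 CPM against 70.3 and 71.5 CPM. Co-receptor-negative cells had 70.9 and 73.4 CPM against 71.2 and 67.5 CPM. Over the 4 classes its log2 fold change lay between -0.04 and 0.13 and the largest, 0.13 ± 0.07 in Cd8 cells, missed the threshold (edgeR, adjusted p = 0.309). Among clusters of at least 200 cells its level ran from 51.4 CPM in cluster 5, a Cd8 cluster rich in Ccr7, to 124 CPM in cluster 22, a Cd8 cluster with the highest level of the cycling gene Mki67 (552 CPM).

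Among the T cell clusters of at least 200 cells, Runx2 and Runx3 were both lowest in 2 Ccr7-rich clusters. Runx2 was at 2.68 CPM in cluster 0, a Cd4 cluster with Ccr7 at 1205 CPM, and at 4.24 CPM in cluster 5, a Cd8 cluster with Ccr7 at 1144 CPM. Cluster 2 of the Cd4 class had 103 CPM of Runx2 and cluster 17 of the Cd8 class had 58.7 CPM. These are the clusters with the highest Ccl5, 31542 and 47793 CPM, and the RUNX1::RUNX1T1 pools held 97.7% and 98.3% of their cells. High Runx2 was not limited to such clusters. Cluster 13 of the co-receptor-negative class had 88.1 CPM of Runx2, above cluster 17. Its Ccl5 was at 693 CPM, and the RUNX1::RUNX1T1 pools held 45.8% of its cells. Cluster 7 of the Cd8 class, with 58.3% of its cells from those pools, had 56.2 CPM of Runx2. Over all 24 clusters of that size the highest Runx2 was in the shallow Kit Cd34 cluster 24, at 286 CPM.

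Runx3 ran in a similar order among T cells, from 40.8 CPM in cluster 0 and 59.6 CPM in cluster 5 to 251 CPM in cluster 17 and 255 CPM in cluster 2. Cluster 14 of the Cd8 class (213 CPM, with Gzmk at 525 CPM) and cluster 13 of the co-receptor-negative class (205 CPM) followed. Runx1 did not follow this order. Among T cell clusters it was highest in clusters 15 and 11 of the Cd4 class, at 176 and 170 CPM, the latter with Foxp3 at 587 CPM, and lowest in cluster 10 of the Cd8 class, at 37.0 CPM.

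Cluster 2 thus stood apart from the other Cd4 clusters in all 3 RUNX genes, with Runx1 at 89.9 CPM where clusters 0, 11 and 15 had 147 to 176 CPM. These values are descriptions of clusters and were not tested. The cluster holds too few Control cells, 15 and 12, for a comparison of the groups inside it, and the same is true of cluster 17 with 17 and 33.

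**Figure D3:**
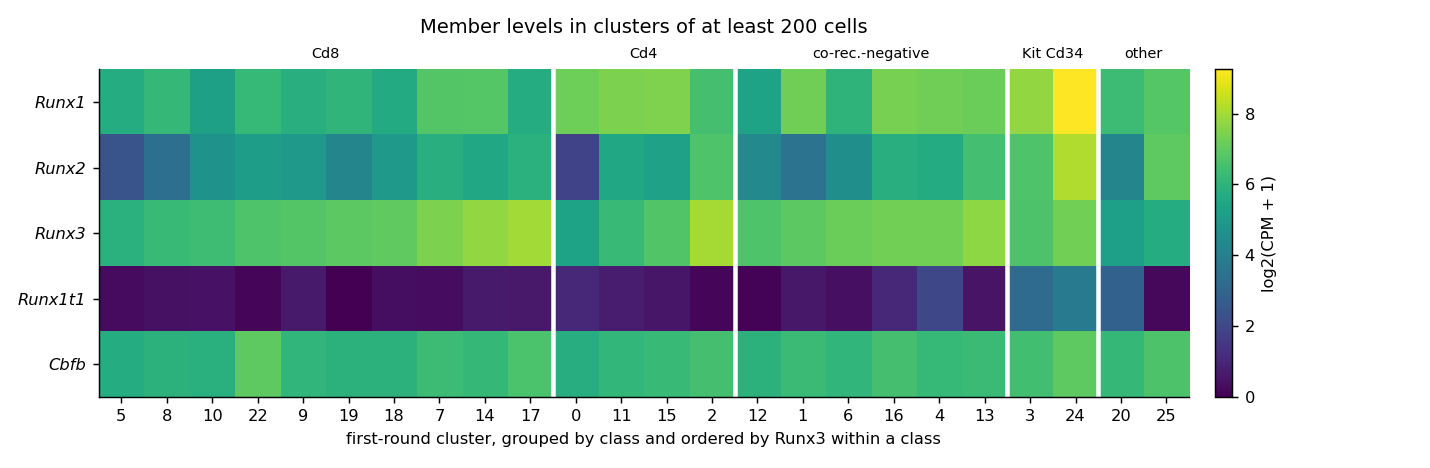
Heat map of log2(CPM + 1) of the 5 members (rows) in the 24 clusters of at least 200 cells (columns), grouped by class and ordered by Runx3 within a class. Among T cell clusters Runx2 and Runx3 are both darkest in clusters 0 and 5 (2.68 and 4.24 CPM of Runx2), and Runx1 and Runx2 are brightest in the Kit Cd34 cluster 24 (609 and 286 CPM).

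Inside the 19 T cell clusters with at least 20 cells in every pool, Runx2 was higher in both RUNX1::RUNX1T1 pools than in both Control pools in 14 clusters, lower in 0 and overlapping in 5. Neighbouring clusters share pools, the CPM values are not TMM-scaled, and the counts were not tested. How often other genes stand apart in this way was not computed, so the counts are not a result particular to the members. In cluster 9 of the Cd8 class it was at 36.6 and 42.4 CPM against 24.0 and 25.8 CPM, and in cluster 6 of the co-receptor-negative class at 33.3 and 29.4 CPM against 21.3 and 20.8 CPM. An overlap was seen in cluster 8 (10.5 and 8.90 CPM against 9.82 and 7.50 CPM), and in clusters 1, 4, 21 and 22.

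Runx3 stood higher in both RUNX1::RUNX1T1 pools in 11 of the 19 clusters, lower in 1 and overlapping in 7. In cluster 14 of the Cd8 class it was at 208 and 244 CPM against 176 and 177 CPM, and in cluster 10 at 87.3 and 86.7 CPM against 72.9 and 72.6 CPM. In cluster 9 it was at 106 and 113 CPM against 105 and 116 CPM, so that Runx2 was apart there and Runx3 was not. The same counts were 6 higher, 4 lower and 9 overlapping for Runx1, and 1, 3 and 15 for Cbfb. The limits given for the Runx2 counts hold for these too. The clusters named here were picked after their values were seen.

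**Figure D4:**
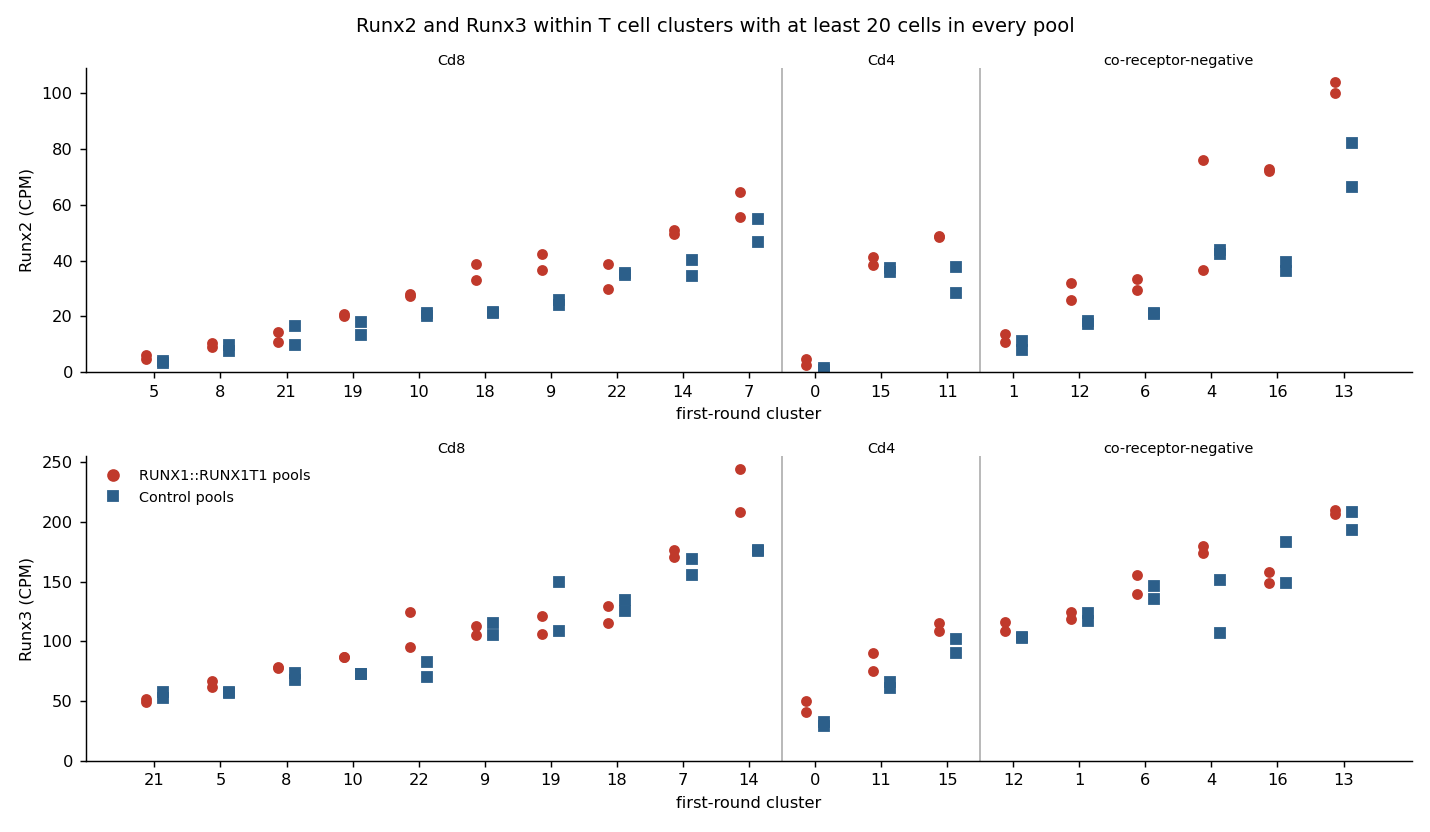
CPM of Runx2 (upper panel) and Runx3 (lower panel) by pool (y axis, linear) in the T cell clusters with at least 20 cells in every pool (x axis, ordered by mean level within a class). Red circles are RUNX1::RUNX1T1 pools and blue squares Control pools. Runx2 values of the groups stand apart in clusters 9, 18, 6 and 12 and overlap in clusters 8, 21 and 22.

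Partners and co-repressors of RUNX1 and RUNX1T1 were described as a list of 17 genes, with Cbfa2t2 and Cbfa2t3 (paralogs of Runx1t1), the Tle genes (Groucho co-repressors), Ets1 (a DNA-binding partner), Ncor1, Sin3a, Hdac1, Hdac2 and Hdac3 (co-repressor complexes), Ep300 and Crebbp (acetyltransferases), Prmt1 and Kmt2a (methyltransferases). In the T cell classes edgeR called 0 of the 17, 16 and 17 tested in Cd8, Cd4 and co-receptor-negative cells. Over all genes an unadjusted p under 0.05 was reached by 2938 of 13029, 2347 of 11711 and 2652 of 12243. DESeq2 called 926, 396 and 576 of these. Of the listed genes 6, 1 and 2 had an unadjusted p under 0.05, and DESeq2 called 1, 0 and 0. Their median log2 fold changes were -0.09, -0.10 and -0.04, where the medians over all genes were -0.01 in each class.

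In Kit Cd34 cells 4 of the 17 rose, 1 fell and 12 did not pass, with a median of 0.16 where that of all genes was 0.00. These 5 of 17 stand beside 23.4% of all genes called in this class, so the share is near the background. Tle1 was at 24.0 and 30.1 CPM in the RUNX1::RUNX1T1 pools and at 17.5 and 14.5 CPM in the Control pools (0.90 ± 0.22, edgeR, adjusted p = 0.0107), and Tle4, Kmt2a and Ep300 also rose (0.68, 0.56 and 0.47). Tle3 fell, from 37.9 and 38.0 CPM in the Control pools to 22.4 and 19.4 CPM in the RUNX1::RUNX1T1 pools (-0.77 ± 0.20, edgeR, adjusted p = 0.015). Over all 10837 genes 3772 had an unadjusted p under 0.05 and DESeq2 called 1374. Of the 17, 8 had an unadjusted p under 0.05 and DESeq2 called 0. The differences in mast cell markers and cell numbers given above go with these values too.

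Progenitor and myeloid genes linked to RUNX1 formed a list of 13 tested in Kit Cd34 cells, where 7 rose, 4 fell and 2 did not pass, beside 23.4% of all genes called. Cpa3 moved with them, at 7131 and 6810 CPM against 9.24 and 10.7 CPM, and Gata2 is also 1 of the 6 mast cell and basophil markers. The part of the mast cell and basophil transcripts in these values was not tested. Mpo, the granule peroxidase, was at 1124 and 1068 CPM against 322 and 387 CPM (1.72 ± 0.17, edgeR, adjusted p = 2.8e-05). Gata2, a factor of stem and mast cells, was at 213 and 236 CPM against 78.5 and 89.7 CPM (1.48 ± 0.14, edgeR, adjusted p = 1.8e-05), and Gata1, Gfi1, Tal1, Fli1 and Myb rose by 3.30, 2.00, 1.41, 0.90 and 0.81 on the log2 scale. Spi1, the myeloid factor PU.1, was at 87.2 and 92.5 CPM against 179 and 189 CPM (-0.95 ± 0.13, edgeR, adjusted p = 0.000258), and Cebpa and Lmo2 fell as well (-1.99 and -0.75), as did Csf1r, the receptor for M-CSF, which was at 0 to 7.11 CPM. In Cd8, Cd4 and co-receptor-negative cells 12, 8 and 9 of the 13 were tested, edgeR and DESeq2 called 0, and 3, 3 and 2 had an unadjusted p under 0.05. The counts over all genes in these classes are given with the partners and co-repressors above.

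**Figure D5:**
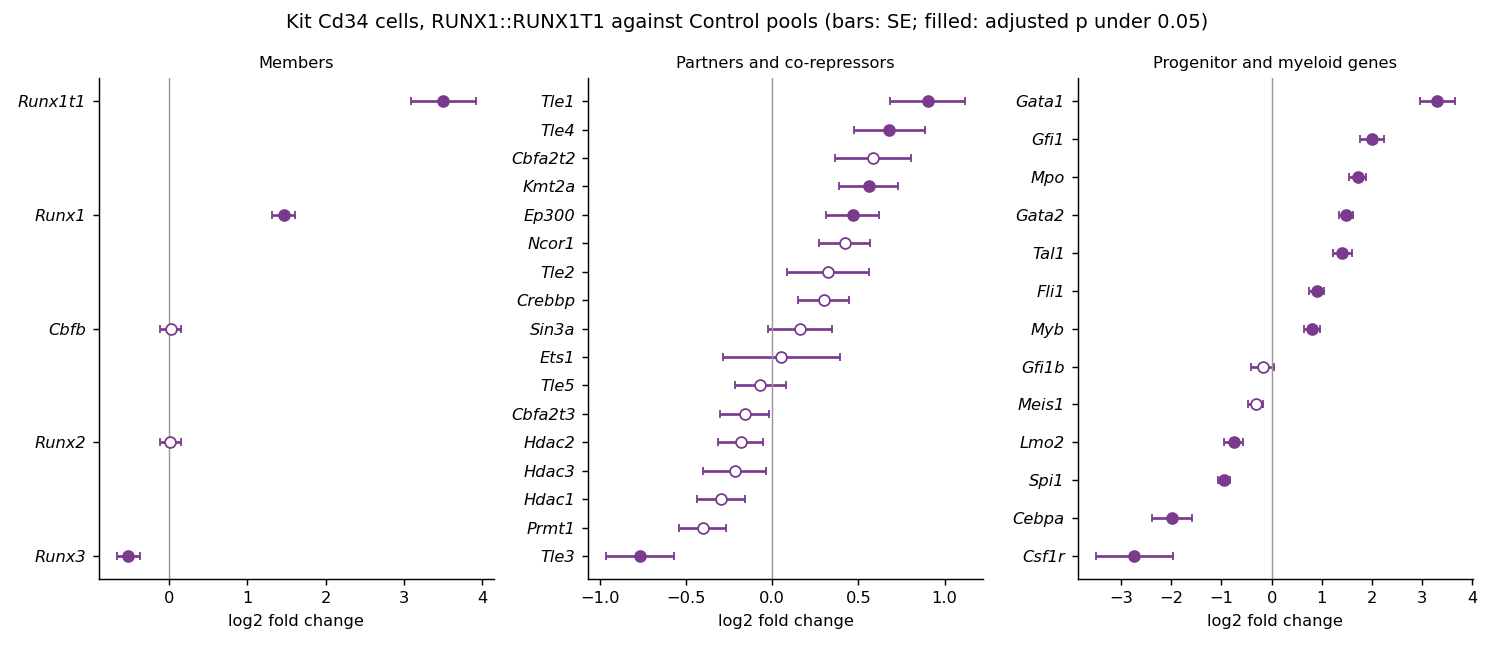
Log2 fold change of RUNX1::RUNX1T1 over Control pools in Kit Cd34 cells (x axis) for the members, the partners and co-repressors and the progenitor and myeloid genes (rows), with bars for the SE and filled points for an adjusted p under 0.05. Runx1t1 (3.50) and Gata1 (3.30) lie furthest to the right, Csf1r and Cebpa (-1.99) furthest to the left.

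T lineage genes that RUNX proteins regulate or act beside formed a list of 21. In Cd4 cells 5 rose, 2 fell and 14 did not pass, beside 3.24% of all genes called, with a median log2 fold change of 0.25 where that of all genes was -0.01. Ccl5 was at 7000 and 9112 CPM against 1254 and 1161 CPM (2.75 ± 0.13, edgeR, adjusted p = 0.000157), and Eomes, a factor of effector and memory cells, at 61.4 and 111 CPM against 13.8 and 9.01 CPM (2.93 ± 0.31, edgeR, adjusted p = 0.00557). Gzmb, Prf1 and Il2rb, for granzyme B, perforin and the shared chain of the interleukin-2 and interleukin-15 receptors, rose by 2.04, 1.76 and 0.59. Tcf7 and Satb1, factors of naive T cells, fell (-0.66 and -0.42). These genes moved in the same class as Runx2 and Runx3, and so did the share of cells in cluster 2.

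In co-receptor-negative cells 5 of the 21 rose, 3 fell and 13 did not pass, beside 5.33% of all genes called, with a median of 0.29. Cd4 was at 26.4 and 24.9 CPM against 11.6 and 9.60 CPM (1.19 ± 0.11, edgeR, adjusted p = 0.000653), so the class was less strictly without Cd4 transcripts in the RUNX1::RUNX1T1 pools. Cd8b1 rose by 0.91, Foxp3 by 0.99, Gzmb by 0.91 and Eomes by 0.50. Tbx21, the T-bet gene, was at 86.0 and 83.4 CPM against 114 and 120 CPM (-0.55 ± 0.08, edgeR, adjusted p = 0.00452), and Il2 and Prf1 fell too (-1.20 and -0.46). Natural killer and innate-like markers, summed over 8 genes, were at 2664 and 2528 CPM against 3261 and 3386 CPM in this class, and their part in the RUNX values was not tested. In Cd8 cells edgeR called 0 of the 21, 10 had an unadjusted p under 0.05, and DESeq2 called 6. Of all 13029 genes there, 2938 had an unadjusted p under 0.05 and DESeq2 called 926. In Kit Cd34 cells 3 of the 18 tested rose (Gata3, Eomes and Foxp3) and 0 fell by edgeR. This share is below the 23.4% of all genes called in that class. An unadjusted p under 0.05 was reached by 6 of the 18, beside 3772 of all 10837 genes. DESeq2 called 1 of the 18, beside 1374 of all genes.

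The genes whose log2(CPM + 1) followed each member most closely across the 24 clusters were ranked by Pearson's r, as a description over clusters that share libraries and depth. For Runx1t1 they were Kit (r = 0.96), Mdga1, Angpt1, Cpa3 and Adgrl4, which are high in the Kit Cd34 clusters. For Runx1 they were Mbd1 (0.91), Rest, Adipor2, Sp1 and Fam160b1, and for Runx2 they were Tmed5 (0.89), Zdhhc3, Atp2b4, Gfod1 and Stt3a. Runx3 was followed by Slc3a2 (0.89), a chain of amino acid transporters induced on activated T cells, then Lax1, Nbeal2, Gatad2a and Vopp1. Cbfb was followed by Mapre1 (0.93), Nsd2, Odf2, Psmd14 and Ckap5, with Mapre1 and Ckap5 acting on microtubules.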

How the data were processed

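UMI counts were deposited by the authors per gene and barcode, without normalization, from Cell Ranger 6.1.2 and GRCm38 per the labels. The authors also deposited TCR contig tables with a UMI count per contig, used here only to mark paired receptors and expanded clonotypes. Barcodes with under 200 genes or over 15% mitochondrial UMIs were left out, and doublets called by Scrublet at an expected rate of 0.05 were removed. In 3 libraries its cutoff called fewer than 0.5%, so the top 5% by doublet score were taken out instead. Cells were clustered in Scanpy 1.11.5 on 4000 variable genes without the 5 members, with 50 principal components, 3 neighbors per library and Leiden resolution 2, which gave 27 clusters. Kit Cd34 clusters had Kit and Cd34 UMIs in over 20% of cells each. Of the other clusters, those with a Cd3 UMI in over 50% of cells were Cd8 or Cd4 where that co-receptor had a UMI in over 50% of cells and the higher mean level, and co-receptor-negative where neither did. Clusters that met no class rule were left out.

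UMIs were summed per pool and class, since cells are not replicates, and CPM is UMIs per 1000000 of that sum. Sums were compared with edgeR 4.0.16 in R 4.3.3 (quasi-likelihood test, TMM, filterByExpr) over all genes, and p-values were adjusted by Benjamini-Hochberg at 0.05. DESeq2 1.42.0 and the other alternatives are given in the closing section. SE is the fold change divided by the square root of F. The comparison of classes fitted the Cd8, Cd4 and co-receptor-negative sums together with the pool as a block. On simulated counts with 200 genes changed by 2 on the log2 scale, edgeR recovered 190, 194, 186 and 186 with 5, 3, 9 and 8 false calls in Cd8, Cd4, co-receptor-negative and Kit Cd34 cells. That change is larger than those of Runx1, Runx2 and Runx3 in the T cell classes. The simulation therefore does not tell how often changes of their size would be called. A few genes and the comparisons that need them are not reported here. Members and gene lists were chosen with earlier results of these data known. From each list up to 10 genes with the lowest p in any class comparison were named, with those a result turned on. RefSeq promoter windows were found for 4 of the 5 members, 6 windows in all.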

Additional observations from a re-analysis of the deposited data

Results flagged for a closer look

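The effect of the group on Runx3 differed between T cell classes by edgeR's test of the difference. It was lower in co-receptor-negative than in Cd8 cells (-0.47 on the log2 scale, edgeR, adjusted p = 0.0351) and lower than in Cd4 cells (-0.75, edgeR, adjusted p = 0.00829). Leaving out the clusters held almost entirely by the RUNX1::RUNX1T1 pools, an alternative added after seeing the data, gave -0.31 and -0.32, and both still passed. With classes taken from the UMIs of each cell the first was -0.33 (edgeR, adjusted p = 0.0807) and the second -0.67 (edgeR, adjusted p = 0.0133). Neither passed without either pool of the Control group, in fits that leave 1 Control pool and where nearly no gene passed. With 2 pools per group, no sample could be tested as an outlier within its group.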

How the results depend on the processing

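Each group is 2 pools. No alternative reversed a called direction. RLE size factors, run for the Cd8, Cd4 and co-receptor-negative classes, changed no call of a member there. Over the alternatives that kept every pool, 163 values for members stayed on their side of the threshold, 15 newly passed and 10 no longer passed. Values called in neither setting were counted as unchanged whatever their sign. With a pool left out, Runx1 in Cd8 cells ranged from -0.13 to 0.12, so signs of uncalled values did change. The cause of these changes was not tested. DESeq2 called 926 genes in Cd8 cells, 1374 in Kit Cd34 cells and 611 in the Ccl5 stratum of Cd8 cells. With DESeq2, Runx2 was 0.89 in Cd8 cells and 0.56 in their Ccl5 stratum and Runx3 0.50 in Cd8 cells, all passing, while Runx3 in Kit Cd34 cells (-0.53) did not pass.

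The labels share replicate numbers. Same-numbered pools differ in genotype and so hold different mice, and nothing says whether they share a litter or a batch. With 2 pairs the correlations of their deviations were 0.124 to 0.345. With the replicate block 809 genes were called in Cd8 cells, 1315 in co-receptor-negative cells, 656 in the Ccl5 stratum of Cd8 cells and 252 in the Ccl5 stratum of Cd4 cells. With the replicate block these members newly passed: Runx2 (0.88) and Runx3 (0.49) in Cd8 cells, Runx1 (0.28) and Runx1t1 (1.95) in co-receptor-negative cells, and Runx2 (0.55) in the Ccl5 stratum of Cd8 cells. It changed no other call of a member.

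Without the count filter 188 genes were called in Cd8 and 5 in Cd4 cells; Runx2 passed in Cd8 cells (0.89), and Runx2 (0.84) and Runx3 (0.78) missed in Cd4 cells. At resolution 1, 405, 158 and 272 genes were called in Cd8, Cd4 and co-receptor-negative cells. Runx2 passed in Cd8 cells (1.003), and Runx2 (0.41) and Runx3 (0.33) missed in Cd4 cells. The classes held other cells there. A Cd8 cluster of 4937 cells had a Cd4 UMI in 33.9% of them. The Cd4 class had 3183 and 2485 cells in the RUNX1::RUNX1T1 pools, against 3668 and 3119 at resolution 2. In the Control pools it had 1492 and 1519, against 1504 and 1521. The Cd8 and Cd4 changes are thus not independent of each other. Without expanded clonotypes 85 genes and Runx2 (0.78) were called in Cd8 cells. Without clusters held over 90% by the RUNX1::RUNX1T1 pools, chosen after seeing the data, 264 and 153 genes were called in Cd8 and Cd4 cells, Runx2 passed in Cd8 cells (0.74), and Runx2 (0.39) and Runx3 (0.32) missed in Cd4 cells.

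With classes from the UMIs of each cell 16 and 246 genes were called in Cd8 and Cd4 cells. In co-receptor-negative cells Runx1 passed (0.54) and Runx2 missed (0.41), Runx3 missed in Kit Cd34 cells (-0.42), and the difference of Runx3 between co-receptor-negative and Cd8 cells missed (-0.33). Runx1 in co-receptor-negative cells also passed with the strict cell filter (0.30) and without clusters of low depth (0.30), the latter chosen after seeing the data. Log2 ratios of levels to Cd8 cells moved with classes from UMIs to 0.85 for Runx1 and 0.42 for Runx2 in co-receptor-negative cells and to 0.0216 for Runx3 and 0.25 for Cbfb in Cd4 cells, and with thinned cells to 1.12 for Runx1 in Cd4 and 0.10 for Runx2 in co-receptor-negative cells.

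With each pool left out in turn, the genes called ranged from 5 to 1179 in Cd8, 294 to 850 in Cd4, 359 to 803 in co-receptor-negative and 1622 to 3911 in Kit Cd34 cells. In the Ccl5 strata they ranged from 0 to 1693 in Cd8 cells and from 92 to 279 in Cd4 cells. Runx2 ranged from 0.77 to 0.995 and Runx3 from 0.33 to 0.65 in Cd8 cells, and Runx3 from -0.70 to -0.36 in Kit Cd34 cells. Runx2 ranged from 0.49 to 0.61 in the Ccl5 stratum of Cd8 cells and from 0.19 to 0.91 in the Ccl5 stratum of Cd4 cells, and Runx3 from 0.21 to 0.49 and 0.58 to 0.60 in the Ccl5 strata of Cd8 and Cd4 cells. For the differences between classes, leaving out pools was an alternative added after seeing the data, and the values ranged for Runx3 from -0.59 to -0.36 against Cd8 and -0.82 to -0.68 against Cd4 cells, and for Runx1 from 0.19 to 0.37 against Cd8 cells, passing without replicate 1 of the RUNX1::RUNX1T1 group.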
